A study of Mus musculus with 4 samples.

Results

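The Ly6 genes described here are Ly6a, Ly6c1, Ly6c2, Ly6d, Ly6e and Ly6g, a list of 6 mouse surface protein genes. The list was chosen by measured values, namely the higher log2 level of Ly6c2 on the array of recolonized mice, so that difference is given as a description and supports nothing further. A gene was read from its probe set with exactly 1 gene symbol and the highest mean over the 4 arrays. Of the 6 genes, 5 were measured, among 22180 measured genes in all, and each of the 5 had 1 probe set. Ly6a, known as stem cell antigen Sca-1, was not analysed here because the gene table used here pairs no probe set with it.

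The arrays were Affymetrix expression arrays of pooled C57Bl/6 mice of 8 to 10 weeks, 1 array for each of 4 groups. The Recolonized array held colon intraepithelial lymphocytes (IEL, the lymphocytes lodged within the gut epithelium) from mice that drank 0.01% each of ampicillin and neomycin with 0.05% each of metronidazole and vancomycin for 7 days. They were then given back a microbiota for 7 days, by co-housing or by soiled bedding from littermates without treatment, since the labels give both. The WT_IEL array held colon IEL of unmanipulated mice, the SI_IEL array held small intestinal IEL of unmanipulated mice, and the array labelled LP was described as colon lamina propria T cells. All 4 samples came from magnetic negative selection for T cells with an added antibody against the epithelial protein EpCAM. The labels put the pool at 10 mice, 5 male and 5 female, both in total and for each sample. Antibiotics were not given without recolonization in any group here, so antibiotics and recolonization cannot be told apart. With 1 array a group, no difference below has an error, a replicate check or a p-value, and in such bulk samples fewer cells of a type and less RNA per cell cannot be told apart.

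Ly6 proteins are small, cysteine-rich surface proteins held in the membrane by a glycosylphosphatidylinositol (GPI) anchor. Their mouse genes lie close together on chromosome 15, and several serve as antigens that tell blood cell types apart: Ly6C marks inflammatory monocytes, plasma cells and memory CD8 T cells, Ly6G marks neutrophils, and Ly6d is used to follow early B lineage cells and also marks squamous epithelium. Ly6A and Ly6E are known to be induced by interferons, and Ly6E has also been described as a thymic antigen.

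Several genes of this cluster resemble each other in the sequence around their start sites. RefSeq promoter windows of the build GRCm38.p6, running from 250 bases before to 50 bases after a start site, were found for Ly6c1, Ly6c2 and Ly6g among the listed genes, and for their neighbour Ly6a2. Ly6a2 lies next to Ly6c2 in gene order and was taken up after its values were seen. The windows are shown because the pair Ly6c2 and Ly6a2 is nearly the same in sequence there, while Ly6c2 alone of the pair had differences past 2-fold. Capitals in the Ly6c2 window mark bases that differ from Ly6a2 or are missing there. Capitals in the other windows mark bases that differ from Ly6c2 or are missing there, leaving out the ends that overhang.
Ly6c2, chr15:75111922-75112221, minus strand: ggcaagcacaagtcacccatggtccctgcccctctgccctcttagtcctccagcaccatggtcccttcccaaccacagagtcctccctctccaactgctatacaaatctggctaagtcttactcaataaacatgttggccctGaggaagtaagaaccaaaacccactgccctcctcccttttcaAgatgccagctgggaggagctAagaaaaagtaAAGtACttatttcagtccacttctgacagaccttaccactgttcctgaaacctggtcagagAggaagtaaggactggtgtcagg
Ly6a2, chr15:75135079-75135378, minus strand: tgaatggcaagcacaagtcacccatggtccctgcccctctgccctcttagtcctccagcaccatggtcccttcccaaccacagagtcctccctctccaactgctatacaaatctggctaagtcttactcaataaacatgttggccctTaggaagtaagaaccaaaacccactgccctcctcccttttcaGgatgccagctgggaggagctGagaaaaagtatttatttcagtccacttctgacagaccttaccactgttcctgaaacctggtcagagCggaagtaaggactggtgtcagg
Ly6g, chr15:75155079-75155378, plus strand: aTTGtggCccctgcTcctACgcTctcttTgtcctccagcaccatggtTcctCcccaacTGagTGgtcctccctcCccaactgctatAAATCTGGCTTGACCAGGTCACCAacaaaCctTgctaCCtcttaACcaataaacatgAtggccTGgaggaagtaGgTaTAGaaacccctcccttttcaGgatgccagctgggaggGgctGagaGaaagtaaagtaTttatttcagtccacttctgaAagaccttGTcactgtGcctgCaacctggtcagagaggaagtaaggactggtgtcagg
Ly6c1, chr15:75048788-75049087, minus strand: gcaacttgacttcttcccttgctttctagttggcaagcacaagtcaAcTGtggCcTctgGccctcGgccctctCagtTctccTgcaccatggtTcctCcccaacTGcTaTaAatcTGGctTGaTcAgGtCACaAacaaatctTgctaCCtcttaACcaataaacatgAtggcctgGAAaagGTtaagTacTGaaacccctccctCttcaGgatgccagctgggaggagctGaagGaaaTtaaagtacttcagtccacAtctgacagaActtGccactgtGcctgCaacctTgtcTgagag

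Over the 295 bases that could be aligned, the Ly6c2 and Ly6a2 windows had 291 identical bases, or 98.6%, with 5 further positions in gaps. The Ly6c2 window was 86.8% identical to that of Ly6g over 272 aligned bases and 82.3% identical to that of Ly6c1 over 260. A search on both strands for 9 short motifs was made in all start site windows of these genes. The interferon motifs GAS (TTCNNNGAA) and the ISRE core (GAAA, any 2 bases, then GAAA) had no match in the windows shown; they had one in 8.30% and 3.44% of all 32851 promoter windows. The RUNX motif (TGTGGT), named for transcription factors used by T cells, had 1 match each in the windows of Ly6c2 and Ly6a2, beginning 179 and 174 bases before the start, against 16.8% of all windows with a match. The TATA motif (TATAAA) had a match in those of Ly6g and Ly6c1, 167 and 143 bases before the start, against 13.6% of all windows. The other motifs had no match in these windows. They were those of GATA factors (AGATAA, in 11.2% of all windows), a long form of the ETS motif (CAGGAAGT, 3.33%), the E box (CACGTG, 7.15%), a core shared by NFAT and NFkB (GGAAATTCC, 0.317%) and the T-box (TCACACCT, 1.28%). Shorter ETS letters were not searched for, and GGAAGT, a part of that long form, does occur in the windows of Ly6c2, Ly6a2 and Ly6g. A match is letters in a window and says nothing about binding.

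Before the members were read, the samples were set against markers of their labels. T cell genes had median log2 levels of 7.28 on the Recolonized array, 6.38 on WT_IEL, 5.81 on SI_IEL and 2.51 on the array labelled LP, over 10 measured genes of 14. Cd3e, which encodes the CD3 epsilon chain, was at 9.43 on Recolonized, 9.17 on WT_IEL and 9.49 on SI_IEL but at 3.72 on the array labelled LP, where Epcam was at 9.20. The content of that array therefore goes against its label. All 4 measured genes of red cells, of 7 listed, were at least 2-fold lower on Recolonized than on WT_IEL, with a median difference of −5.32. Of all genes at or above the median of the brighter array, 9.10% were past 2-fold there in either direction. Slc4a1, the anion exchanger of red cells, was at 2.32 on the Recolonized array, 7.93 on WT_IEL, 2.64 on SI_IEL and 2.32 on LP. The median over all genes was 2.39 on Recolonized, 2.41 on WT_IEL, 2.24 on SI_IEL and 2.18 on LP. The part of red cells in the differences from WT_IEL was not tested.

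**Figure D1:**
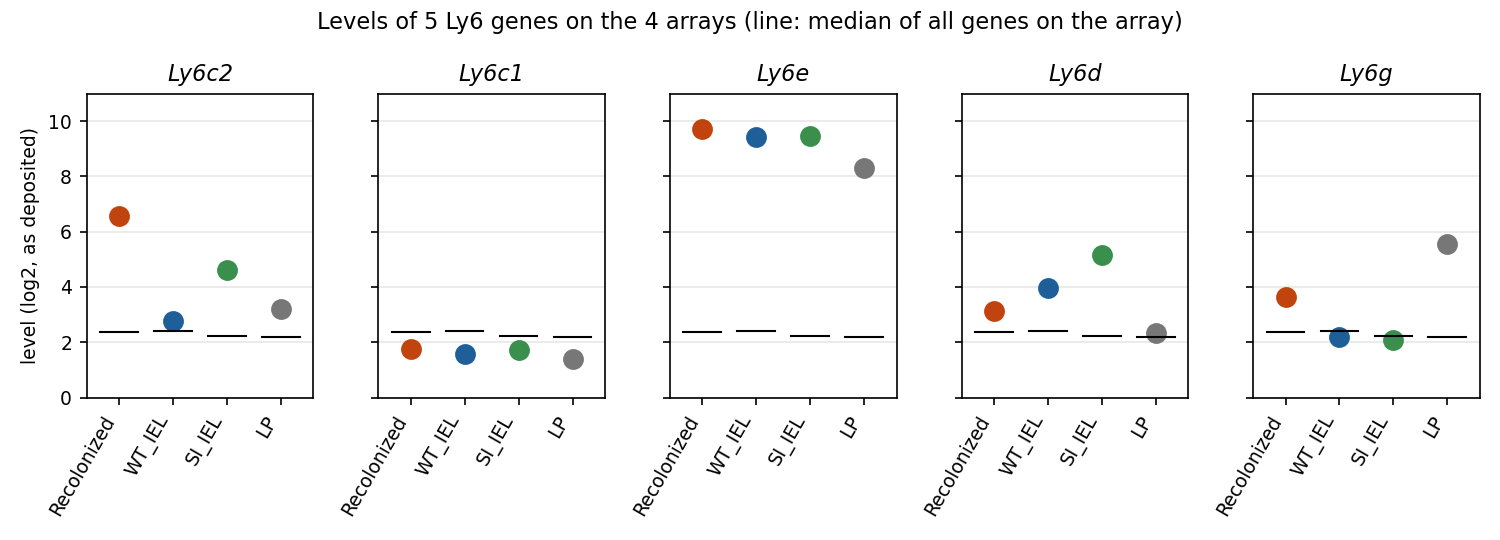
Deposited log2 level of each measured Ly6 gene (points) on the Recolonized, WT_IEL, SI_IEL and LP arrays, 1 array each, with the median level of all genes on that array as a line. Ly6c2 stands at 6.56 on the Recolonized array and 2.77 on WT_IEL, Ly6e lies above 8 on all 4 arrays, and Ly6c1 lies under the median line on all 4.

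Ly6c2 encodes Ly6C2, an antigen of inflammatory monocytes and of memory CD8 T cells. It had a log2 level of 6.56 on the Recolonized array, 2.77 on WT_IEL, 4.60 on SI_IEL and 3.21 on LP. In order, Recolonized was highest, followed by SI_IEL, LP and WT_IEL, and the last 2 lay 0.44 apart, less than the SD of 0.59 that 64 ribosomal protein genes showed between the same pair of arrays. Where a gene lies among all genes of an array also depends on its probes, so levels are compared between arrays, and the median of all genes serves only as a floor.

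Between the Recolonized and WT_IEL arrays, Ly6c2 differed by 3.79 on the log2 scale, or 13.9-fold. Of the 12443 genes at or above the level floor, 0 had a larger positive difference than Ly6c2. The list was chosen by this rise, so the rank is a description only. The floor was the median of all genes on the brighter array of the pair. Apart from ribosomal protein genes, a second gauge within the same pair of arrays is how far the probe sets of 1 gene disagree. Over 968 genes with 2 probe sets, taken without the floor, the SD of that disagreement was 0.73. The gene was also higher on the Recolonized array than on SI_IEL, by 1.96, and lower on WT_IEL than on SI_IEL, by −1.84. These comparisons share arrays, so they are not separate evidence.

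Ly6c1 encodes the near-twin antigen Ly6C1, best known from the endothelium of blood vessels. It had levels of 1.75 on Recolonized, 1.57 on WT_IEL, 1.74 on SI_IEL and 1.38 on LP. All 4 values lay under the median of their array, and none of the 6 comparisons could count the gene. At such levels it cannot show whether Ly6c1 followed Ly6c2. Ly6a2, whose promoter window is nearly that of Ly6c2, was at 3.22, 2.89, 3.01 and 2.46 in the same order of arrays and was within 2-fold in all 6 comparisons. The probe sequences were not used here, so how well the probe sets separate such copies was not tested.

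**Figure D2:**
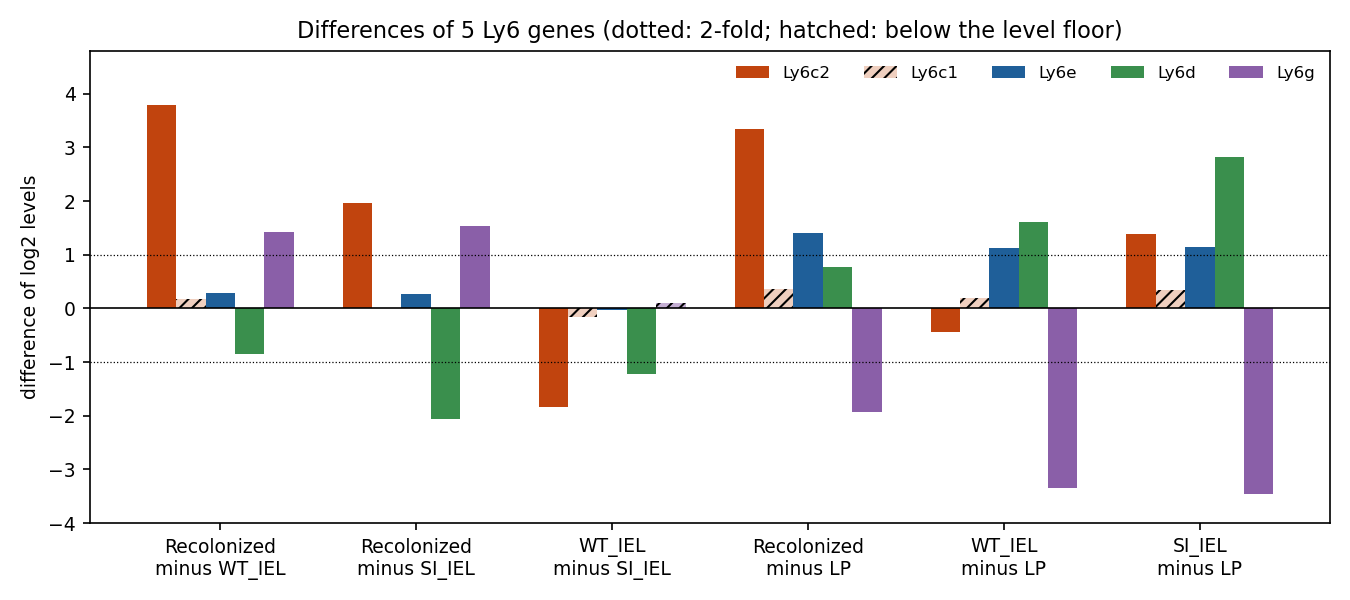
Differences of log2 levels of the 5 measured Ly6 genes in 6 comparisons of 2 arrays each, without error because each group is 1 array; dotted lines mark 2-fold and hatched bars genes below the level floor. Ly6c2 reaches 3.79 in Recolonized minus WT_IEL, and Ly6g lies at −1.93, −3.35 and −3.45 in the comparisons with LP.

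Ly6e, the interferon-inducible family member that also serves as the receptor of syncytin-A in mouse placenta, was above the median of every array. It was at 9.73 on Recolonized, 9.43 on WT_IEL, 9.46 on SI_IEL and 8.31 on LP. As deposited, the 3 IEL arrays spanned 0.29 on the log2 scale. That was less than the SD of ribosomal protein genes in any of their comparisons, which was 0.53 to 0.59. Ly6e was higher on each IEL array than on LP, by 1.41 for Recolonized, 1.12 for WT_IEL and 1.14 for SI_IEL. For Recolonized minus WT_IEL the sign depended on the scaling: the value was 0.29 as deposited, −0.01 after quantile normalization and −0.31 after a lowess correction. Those scalings gave 0.54 and 0.76 for WT_IEL minus SI_IEL, against −0.02 as deposited, and 0.53 and 0.61 for Recolonized minus SI_IEL, against 0.27. In both comparisons with SI_IEL the lowess value lay above the SD of ribosomal protein genes.

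Ly6d, an antigen of early B lineage cells and of squamous epithelium, followed another order. It had levels of 3.11 on Recolonized, 3.96 on WT_IEL, 5.17 on SI_IEL and 2.35 on LP, so SI_IEL was highest and LP lay only 0.16 above the median of its array. The Recolonized array was lower than SI_IEL by −2.06, or 4.17-fold, and lower than WT_IEL by −0.85, which is within 2-fold but was −1.26 after quantile normalization. WT_IEL was lower than SI_IEL by −1.22. Among the scalings tried, that last difference was past 2-fold only as deposited. It was −0.37 after quantile normalization, −0.36 after the lowess correction and −0.92 after centring on the median difference of genes above the floor. That median was −0.30, against 0.06 over all genes with no floor, so the centred value depends on the floor.

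The listed genes Cd79a, Cd79b, Ms4a1, Pax5 and Jchain had the same order of arrays as Ly6d, from SI_IEL at the top to LP. The other measured genes of the list, Mzb1, Sdc1, Xbp1, Prdm1 and Tnfrsf17, did not. These and Pax5 were named after their values were seen. Sdc1 and Xbp1 were highest on LP at 4.24 and 6.23, and Mzb1 on WT_IEL at 2.91. Prdm1, Sdc1 and Xbp1 were higher on Recolonized than on WT_IEL, by 0.59, 0.26 and 0.57, all within 2-fold. Cd79a, a chain of the B cell receptor, was at 3.31 on Recolonized, 5.57 on WT_IEL, 7.49 on SI_IEL and 2.45 on LP. Of the 10 measured B and plasma cell genes of 11 listed, 6 were at or above the array median on Recolonized, 8 on WT_IEL, 9 on SI_IEL and 5 on LP. Their summed level on the linear scale was 99.5, 146, 658 and 129 in that order. By that sum LP lay above Recolonized, unlike for Ly6d, and the brightest of the 10 on LP was Xbp1. By their median level LP lay lowest: 2.71 on Recolonized, 3.13 on WT_IEL, 5.01 on SI_IEL and 2.22 on LP. Cd79b and Ms4a1 were lower on Recolonized than on WT_IEL, by −1.92 and −1.43, and the plasma cell gene Jchain was at 2.02, 2.21, 7.64 and 1.38 over the same arrays. Squamous epithelial markers were low throughout: of 8 measured genes of 9 listed, 0 on Recolonized, 2 on WT_IEL (Krt14 at 2.49 and Krt6a at 2.63), 0 on SI_IEL and 0 on LP reached the array median. The part of B cells in the Ly6d values was not tested.

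Ly6g, the antigen by which mouse neutrophils are recognised, was highest on the array labelled LP. Its levels were 3.62 on Recolonized, 2.20 on WT_IEL, 2.09 on SI_IEL and 5.55 on LP. The WT_IEL and SI_IEL values lay under the medians of their arrays and 0.11 apart. The Recolonized array was higher than WT_IEL by 1.42, or 2.68-fold, and higher than SI_IEL by 1.53. In Recolonized minus WT_IEL, 226 of 12443 genes above the floor had a larger positive difference. Against LP the IEL arrays were lower, by −1.93 for Recolonized, −3.35 for WT_IEL and −3.45 for SI_IEL; the value for Recolonized was −0.97 after the lowess correction, which is within 2-fold.

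Neutrophil genes were mostly under the array medians. Of 13 measured neutrophil genes of 13 listed, 0 reached the array median on Recolonized, 4 on WT_IEL, 1 on SI_IEL and 0 on LP, where Ly6g was highest. The calprotectin subunits S100a8 and S100a9, which neutrophils make in bulk, were at 1.31 and 1.42 on LP. On the Recolonized array they were at 1.74 and 1.63. The neutrophil genes had a summed linear level of 48.5 on Recolonized, 72.0 on WT_IEL, 43.4 on SI_IEL and 39.1 on LP. Among the 4 neutrophil genes above the floor in Recolonized minus WT_IEL, the largest difference ran the other way from Ly6g: Retnlg, a secreted protein of neutrophils, was at 1.90 on Recolonized and 4.15 on WT_IEL.

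Some epithelial genes were higher on Recolonized than on WT_IEL, as Ly6g was. Of 14 intestinal epithelial genes, all measured, 12 were above the floor in Recolonized minus WT_IEL, and 5 were at least 2-fold higher with 0 lower, where 9.10% of all genes above the floor were called in either direction. The other 7 were within 2-fold. The 5 included the chloride exchanger Slc26a3 at 5.57 against 2.82, the goblet cell mucin Muc2 at 9.45 against 7.00 and E-cadherin (Cdh1) at 6.46 against 4.61. The summed linear level of the 14 was 1586 on Recolonized, 590 on WT_IEL, 4612 on SI_IEL and 11456 on LP. On SI_IEL, where epithelial genes were also bright, Ly6g was at its lowest. The part of epithelial RNA in the Ly6g and Ly6c2 values was not tested; Ly6c2 itself was at 3.21 on LP, the array with the highest summed epithelial level, against 6.56 on Recolonized.

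Read across the list, 2 of the 4 Ly6 genes that passed the floor, Ly6c2 and Ly6g, were higher by 2-fold or more in Recolonized than in WT_IEL, and 0 were lower. That comparison had 9.10% of its tested genes past 2-fold in either direction; nothing is read from the count, since the genes were listed for this contrast. In Recolonized minus SI_IEL, 2 of 4 were higher (Ly6c2 and Ly6g) and 1 was lower (Ly6d), against 22.7% of all genes called in either direction. In WT_IEL minus SI_IEL, 0 of 3 were higher and 2 were lower (Ly6c2 and Ly6d), against 30.4% of all genes. The median difference of the 5 genes, taken without the floor, was 0.29, 0.27 and −0.16 in these 3 comparisons. Over all genes it was 0.03, 0.05 and 0.06 with no floor, and 0.13, −0.20 and −0.30 above the floor. In WT_IEL minus SI_IEL the Ly6 median thus lay below that of all genes without the floor. The comparisons share arrays, and the genes that passed the floor did so partly through the array on which they were bright.

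The array labelled LP differed from the IEL arrays in many genes. In Recolonized minus LP, 2 of 4 Ly6 genes were higher (Ly6c2 and Ly6e) and 1 lower (Ly6g), against 39.7% of all genes called in either direction. In WT_IEL minus LP, 2 of 4 were higher (Ly6d and Ly6e) and 1 lower (Ly6g), against 45.2%. In SI_IEL minus LP, 3 of 4 were higher (Ly6c2, Ly6d and Ly6e) and 1 lower (Ly6g), against 24.5%. Ly6g was thus the one listed gene that was brighter on LP than on each IEL array.

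**Figure D3:**
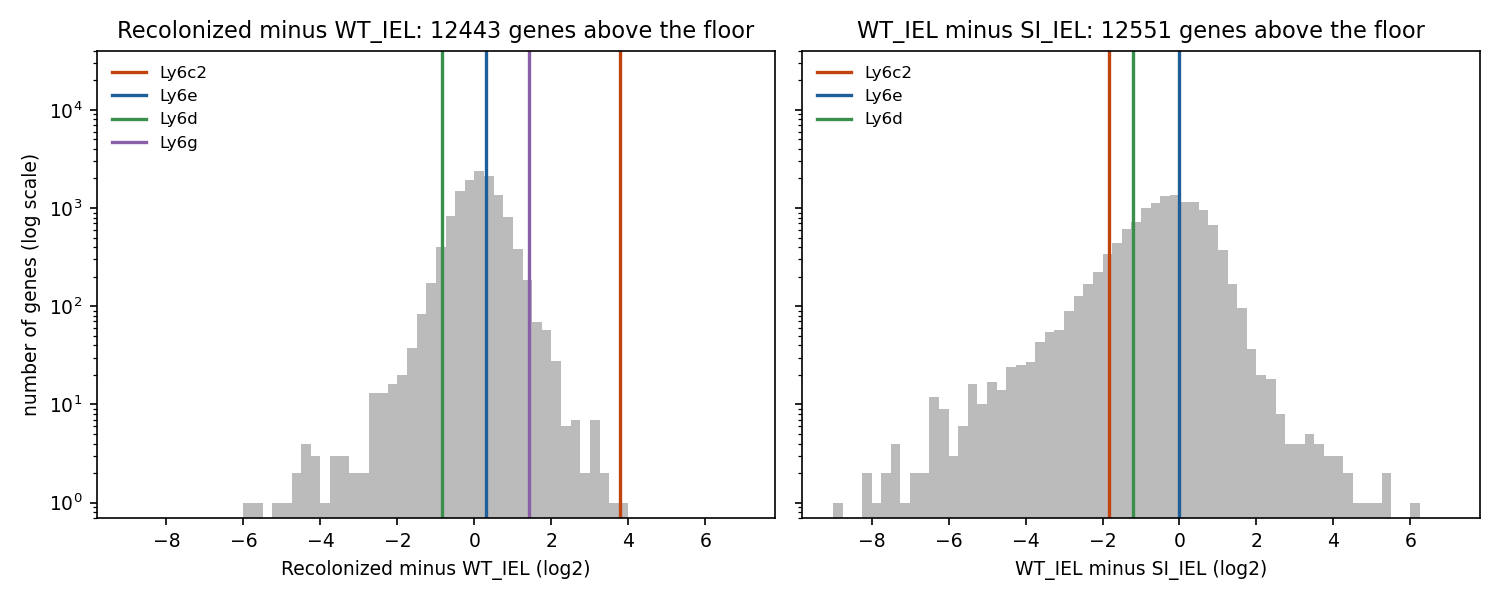
Number of genes (log scale) by difference of log2 levels for genes above the level floor, for Recolonized minus WT_IEL (left) and WT_IEL minus SI_IEL (right), with the Ly6 genes above the floor as coloured lines. Ly6c2 lies at 3.79, the right edge of the left distribution, and at −1.84 in the right one, where 9.18% of genes had a lower difference.

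The wider family showed few differences between the colon IEL arrays. A list of the Ly6 and uPAR superfamily held 42 genes, of which 37 were measured, 32 of them apart from the genes above. Of these 32, 21 reached the median of at least 1 array. In Recolonized minus WT_IEL, 19 of the 32 were above the floor, and 1 was higher and 0 lower, against 9.10% of all genes called in either direction. That one was Lypd8, a secreted and GPI-anchored protein of colonic epithelium that binds flagellated bacteria and keeps them off the epithelium. It was at 10.30 on Recolonized, 8.52 on WT_IEL, 9.35 on SI_IEL and 12.29 on LP, so LP was highest.

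Ly6m, a gene of the chromosome 15 cluster, was at 3.10 on Recolonized, 3.47 on WT_IEL, 5.06 on SI_IEL and 5.46 on LP. It was lower on both colon IEL arrays than on SI_IEL, by −1.96 for Recolonized and −1.59 for WT_IEL. The other family genes of the list past 2-fold in a comparison with SI_IEL were Ly6g2 and the urokinase receptor Plaur, both lower on Recolonized, by −1.41 and −1.33. Ly6g6g, a gene of the chromosome 15 cluster that the list leaves out, was higher on Recolonized than on SI_IEL, by 1.04. It was also higher on Recolonized than on LP, by 1.23, so the counts that follow hold for the listed genes only. In counts, 0 of 18 were higher and 3 lower in Recolonized minus SI_IEL, where 22.7% of all genes were called. In WT_IEL minus SI_IEL, 0 of 14 were higher and 1 lower, where 30.4% were called. Against LP, 0 were higher in each comparison. On Recolonized 4 of 17 were lower (39.7% of all genes called), on WT_IEL 3 of 12 (45.2%) and on SI_IEL 2 of 11 (24.5%). None of these shares lay above that of all genes. Lypd8 was lower than on LP on all 3 IEL arrays, by −1.99 on Recolonized, −3.77 on WT_IEL and −2.94 on SI_IEL. Ly6m was lower on Recolonized (−2.36) and WT_IEL (−1.99), Ly6g2 was lower on Recolonized (−1.45) and WT_IEL (−1.04), and Ly6g6c was lower on Recolonized (−1.07) and SI_IEL (−1.57).

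The remaining named genes of the family stayed within 2-fold or under the floor in all 6 comparisons. They were Ly6g5b, Ly6g5c, Ly6g6d, Ly6g6e, Ly6g6f, Ly6h, Ly6k, Lypd2, Lypd3, Lypd4, Lypd5, Lypd6, Lypd6b, Slurp1, Lynx1 and Gpihbp1. Their levels ran from 1.51 to 3.58 over the 4 arrays.

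Along chromosome 15, the RefSeq gene table lists 28 protein-coding genes from Psca to Ly6h, and 22 of them were measured. The direct neighbours of Ly6c2 had no difference past 2-fold: Ly6c1 on one side was under the median of every array, and Ly6a2 on the other side was within 2-fold in every comparison. In Recolonized minus WT_IEL, Ly6c2 and Ly6g were the 2 genes of the stretch that were at least 2-fold higher, 12 were within 2-fold, 8 were below the floor and 0 were lower. Of all genes above the floor, 9.10% were called there in either direction. Ly6c2 and Ly6g are not direct neighbours, since Ly6a2 lies between them.

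**Figure D4:**
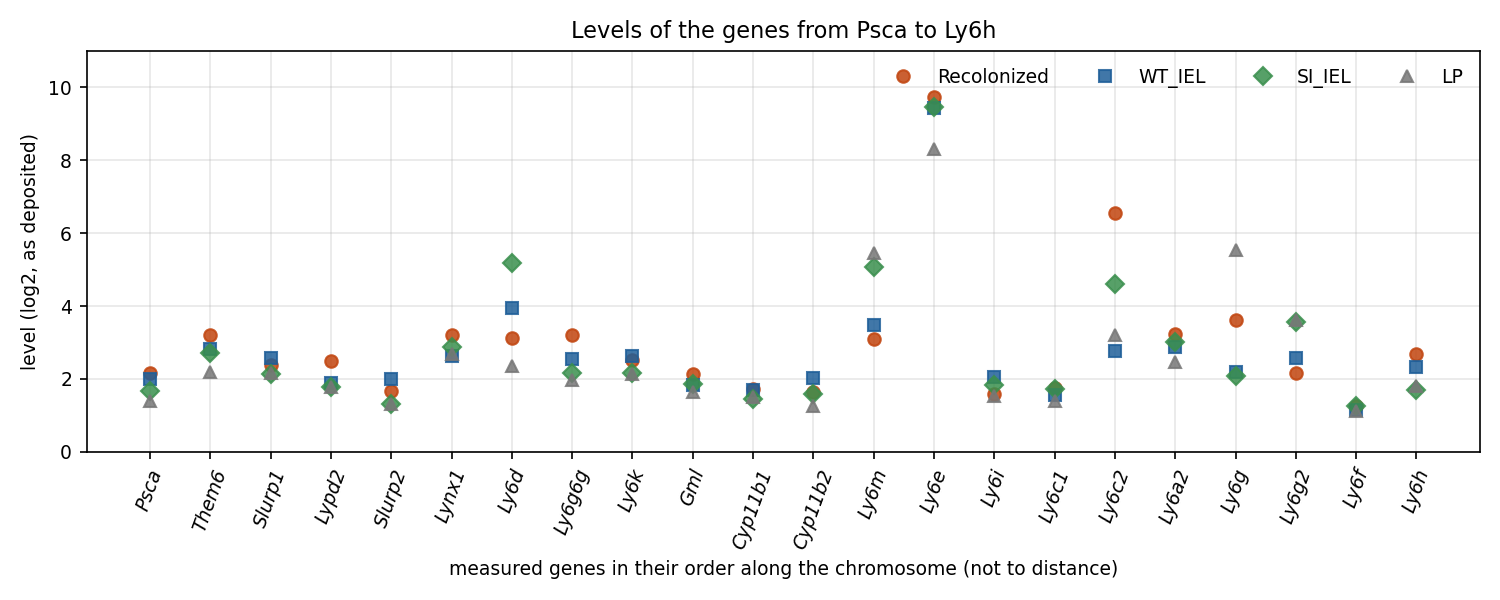
Deposited log2 levels of the 22 measured genes from Psca to Ly6h in their order along chromosome 15 (not to distance) on the 4 arrays. Ly6c2 has its highest level on Recolonized at 6.56, Ly6g on LP at 5.55 and Ly6d on SI_IEL at 5.17, and Ly6m is at 5.06 on SI_IEL and 5.46 on LP.

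Cell types that carry Ly6C were then read from their own markers. Of 15 measured monocyte and macrophage genes of 16 listed, 6 reached the array median on Recolonized, 8 on WT_IEL, 10 on SI_IEL and 5 on LP, with summed linear levels of 199, 209, 457 and 252. Ccr2, the chemokine receptor of Ly6C-bearing monocytes, was at 2.18 on Recolonized and 1.76 on WT_IEL, under the median of both arrays. Lyz2, the lysozyme of myeloid cells, was at 5.74 and 6.40, and Adgre1, the macrophage antigen F4/80, at 1.96 and 2.75. The 1 monocyte and macrophage gene that was at least 2-fold higher on Recolonized was Plac8, at 5.56 against 3.80, which was also bright on LP at 7.56 and on SI_IEL at 8.05. Siglech, the defining receptor of plasmacytoid dendritic cells, was at 2.14 on Recolonized and 2.16 on WT_IEL, under both medians. Of the 8 measured genes of that cell type of 9 listed, 1 was at least 2-fold higher, the kallikrein Klk1 at 8.30 on Recolonized and 6.34 on WT_IEL, which was highest on LP at 10.81, and 0 were lower. Between these 2 arrays, 9.10% of all genes above the floor were called in either direction.

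Endothelial genes, which bear on Ly6c1, were mixed. Of 12 measured, 5 reached the array median on Recolonized, 5 on WT_IEL, 3 on SI_IEL and 3 on LP. The endothelial cadherin Cdh5 was at 3.37 on Recolonized, 2.79 on WT_IEL, 2.77 on SI_IEL and 2.30 on LP, and Pecam1, which leukocytes carry too, at 5.64, 5.39, 5.39 and 3.51 in the same order. In Recolonized minus WT_IEL, 0 endothelial genes were at least 2-fold higher and 1 was lower, the growth factor receptor Kdr by −1.18. That stands beside 9.10% of all genes above the floor called in either direction.

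Genes of memory and effector T cells, which can carry Ly6C2, were measured for 25 of 27 listed. In Recolonized minus WT_IEL, 24 passed the floor, 3 of them higher by 2-fold or more and 0 lower, against 9.10% of all genes called in either direction. Their median difference over all 25 was 0.41, beside 0.13 over all genes above the floor, 0.38 over ribosomal protein genes and 0.55 over the 10 T cell genes. Perforin (Prf1), which opens pores in target cells, was at 5.24 on Recolonized and 4.17 on WT_IEL. The protease Gzma was at 7.73 and 4.98, and Klrg1, an inhibitory receptor of effector cells, at 3.45 and 2.01. The transcription factors of effector T cells Tbx21 and Eomes differed by 0.52 and 0.40, within 2-fold. Among 10 T cell genes, 1 was at least 2-fold higher, the CD8 beta chain Cd8b1 at 7.52 against 6.28, while Cd8a was at 7.04 against 6.48 and Cd4 at 7.70 against 8.09. Gzma had its highest level on SI_IEL, at 10.38, where Ly6c2 was at 4.60.

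Interferon genes were read because Ly6e and others of the family are interferon-inducible. Of 29 measured genes of 32 listed, 26 were above the floor in Recolonized minus WT_IEL, of which 1 was at least 2-fold higher, 3 were lower and 22 were within 2-fold, where 9.10% of all genes were called. The interferon-inducible GTPase Igtp, named after its values were seen, was higher, at 4.22 against 3.11. The antiviral enzyme Rsad2, the exonuclease Isg20 and the ubiquitin-like Isg15 were lower, by −4.95, −4.42 and −2.56. All 3 stood apart on WT_IEL. Red cell genes did so too, with medians of 4.05 on Recolonized, 8.80 on WT_IEL, 4.29 on SI_IEL and 4.30 on LP. The part of red cells in the values of these 3 interferon genes was not tested. Rsad2 was at 3.41 on Recolonized, 8.36 on WT_IEL, 3.25 on SI_IEL and 3.20 on LP. In that order, Isg20 was at 4.40, 8.82, 4.63 and 4.67, and Isg15 at 2.10, 4.66, 2.82 and 2.46. Irf1, a transcription factor of the interferon response, was at 4.15 and 3.50, and Ifit1 at 3.11 and 3.30. Ifng, the gene of interferon gamma itself, was under the floor at 1.75 and 1.47.

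The GPI anchor, which holds Ly6 proteins in the membrane, is built by a chain of Pig enzymes. Of 25 measured genes of that chain of 28 listed, 24 were above the floor in Recolonized minus WT_IEL, with 1 higher, the mannosyltransferase Pigm at 3.12 against 2.09, and 1 lower, Pign at 2.42 against 3.54. The other 22 were within 2-fold. In this comparison 9.10% of all genes above the floor were called in either direction. Stromal genes went both ways between the same arrays: 4 of 11 were higher, such as Lum by 1.99, and 4 were lower, such as Col1a1 by −1.28. The share of stromal genes past 2-fold was thus above the 9.10% of all genes.

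For each listed gene above the floor, the 5 genes with the most alike pattern were found by the Euclidean distance between values centred on each gene's own mean, over 4 arrays and 12544 candidate genes. Such a likeness over 4 arrays is a description, and many genes can be close by it. For Ly6c2 they were Ang4, Bcl11b, Phf11b, Ptpn7 and Lum, at distances of 1.01 to 1.44. Ang4 is an antimicrobial ribonuclease of gut epithelium, and Bcl11b a transcription factor of T cells. For Ly6e they were Ccm2, Zbtb25, Susd3, Tmem64 and Zeb1, at 0.07 to 0.15. For Ly6d they were Pltp, Mical1, Themis2, Rasgrp3 and Fcrl1, at 0.27 to 0.36; Fcrl1 is a surface receptor of B cells and was highest on SI_IEL at 4.72 and lowest on LP at 1.66. For Ly6g they were Tst, Endod1, Cd9, Gas6 and S100a6, at 0.36 to 0.58.

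The likenesses were also taken without the array labelled LP, and no other array was left out. Over the 3 IEL arrays, 1 of the 5 genes nearest to Ly6c2 was shared with the list above, and 0 of 5 for Ly6d, Ly6e and Ly6g. The 5 nearest to Ly6c2 were then Car4, Cyp2c55, Ang4, Guca2a and Epsti1. Car4, a carbonic anhydrase of colonocytes, was at 6.82 on Recolonized, 3.14 on WT_IEL and 3.83 on SI_IEL, but at 8.06 on LP. Guca2a, the gut peptide guanylin, was at 7.16, 3.68 and 6.65, but at 10.54 on LP, where Ly6c2 was at 3.21. Ly6c1 was under the median of every array, so genes alike to it are not named.

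**Figure D5:**
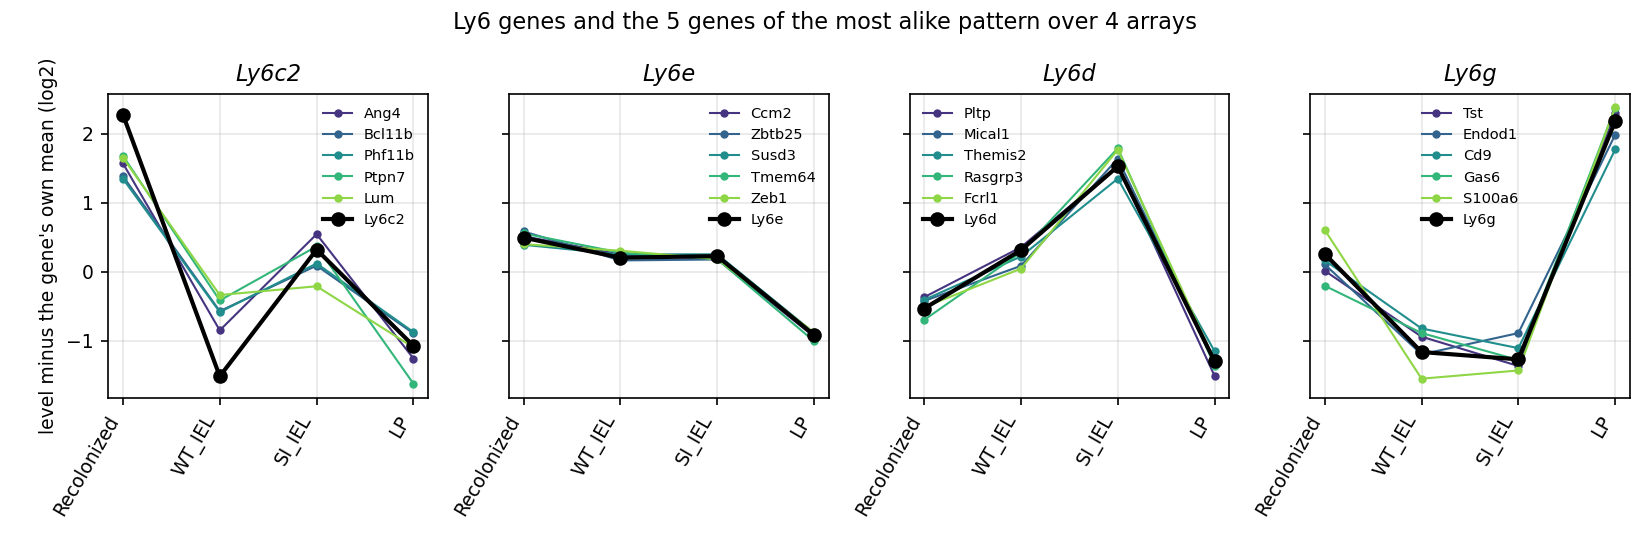
Levels of 4 Ly6 genes (black) and of the 5 genes with the most alike pattern (coloured), each minus the gene's own mean, over the 4 arrays. The Ly6c2 line drops farther on WT_IEL than its 5 companions, whose distances of 1.01 to 1.44 exceed those of the other 3 genes, while the lines of Ly6e and its companions nearly coincide.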

How the data were processed

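The value table holds 1 log2 level per probe set and array for 4 samples. Per the submitters' processing notes, the authors made the deposited log2 values with Affymetrix Expression Console; its version, the summarization, the normalization and a genome build were not stated there or in the labels. Of 41345 probe sets, 23521 list 1 gene symbol in the platform's gene table, 1814 list several and 16010 are not in it. Gene IDs of 23328 probe sets matched the RefSeq table of GRCm38.p6, which was used for names and gene order.

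Differences of log2 levels were taken for the same gene between 2 arrays. A gene was counted when the brighter of its levels reached the median (percentile 50) of gene levels there, and called at a difference of 2-fold or more. No test is possible with 1 array a group, and the number of arrays limits the precision. Promoter windows were aligned with Biopython 1.88 (match 1, mismatch −1, gap opening −2, extension −0.5, free ends), and lowess came from statsmodels 0.14.6 with a span of 0.3. The calling steps were also run on simulated data with planted differences, which checks the code and not the error of these arrays. Members and lists were chosen with earlier results of these data known.

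Genes were named from the listed Ly6 genes, superfamily genes at or above the median of at least 1 array, the 3 members of each other list with the largest difference between Recolonized and WT_IEL, a set of defining markers and the 5 genes of the most alike pattern. Alternatives were other floors and folds, the mean of probe sets, quantile normalization, centring and lowess. The likeness without LP was added after seeing the data.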

Additional observations from a re-analysis of the deposited data

How the results depend on the processing

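No paired analysis was possible because each group is 1 array. The counts of Ly6 genes past 2-fold stayed within 1.5 times of the reported count in all 6 comparisons under the other floors. Taking the mean of probe sets could not change them, since each measured Ly6 gene had 1 probe set. At 3-fold, the count was 1 (Ly6c2) for Recolonized minus WT_IEL, where it was 2, 1 (Ly6c2) for WT_IEL minus SI_IEL, where it was 2, and 2 (Ly6d and Ly6g) for SI_IEL minus LP, where it was 4. It fell from 3 to 2 in each other comparison. The 2 left were Ly6c2 and Ly6d for Recolonized minus SI_IEL, Ly6c2 and Ly6g for Recolonized minus LP, and Ly6d and Ly6g for WT_IEL minus LP. For WT_IEL minus SI_IEL it was also 1 after quantile normalization, after centring and after lowess correction, each of which took Ly6d within 2-fold; the cause was not tested. Of 120 recomputed differences of single Ly6 genes, 109 kept their sign and 11 changed it, and none of the 11 had been past 2-fold. By less than the SD of ribosomal protein genes, 104 moved. The 120, 109 and 104 include the mean of probe sets, which by construction left every Ly6 value unchanged, so they overstate the stability. The share of all genes called lay between its values at 3-fold and 1.5-fold or the 75th percentile floor: 2.05% to 29.7% for Recolonized minus WT_IEL (9.10% as reported, 5.14% with no floor), 9.13% to 46.3% for Recolonized minus SI_IEL (22.7% as reported, 12.7% with no floor), 13.8% to 54.3% for WT_IEL minus SI_IEL (30.4% as reported, 17.3% with no floor), 21.3% to 62.9% for Recolonized minus LP (39.7% as reported, 22.6% with no floor), 25.7% to 67.7% for WT_IEL minus LP (45.2% as reported, 26.2% with no floor), 12.8% to 43.2% for SI_IEL minus LP (24.5% as reported, 13.4% with no floor). Scaling moved the balance: of the called genes, 66.3% were higher in Recolonized minus WT_IEL, against 51.6%, 48.2% and 46.6%, 21.0% were higher in Recolonized minus SI_IEL, against 45.1%, 38.0% and 37.7%, 19.7% were higher in WT_IEL minus SI_IEL, against 45.3%, 42.1% and 39.7%, 23.7% were higher in Recolonized minus LP, against 41.6%, 46.4% and 44.4%, 23.2% were higher in WT_IEL minus LP, against 42.6%, 47.6% and 44.2%, 35.8% were higher in SI_IEL minus LP, against 45.1%, 46.3% and 47.5%, under quantile normalization, centring and lowess in that order. Levels near the low end of an array limit the sizes of differences there.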
